A study of Caenorhabditis elegans with 2 samples.

Results

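The sea-2 gene and its neighbours dos-2 and cank-26 on chromosome II were examined for peaks of SEA-2 itself, in chromatin precipitated from worms that carry a tagged sea-2 transgene. They are 3 of 19985 protein-coding genes of the Ensembl annotation. For each gene every candidate peak was taken whose summit lay in the gene body or up to 1000 bp upstream of its start. This gave 34 of the 82563 candidates of the longer pooled ranked list, of which 27 lay at sea-2, 4 at dos-2 and 4 at cank-26, with 1 summit counted for both dos-2 and cank-26. The genes were chosen on measured values, the selected peaks of the pooled lists at this locus, so the counts and signals of those peaks are a description and were not tested.

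The measurement was chromatin immunoprecipitation followed by sequencing (ChIP-seq) of whole young adults, with 2 biological replicates and no comparison group. The animals were of strain OP586, in which the wgIs586 transgene adds sea-2 fused to TY1, EGFP and 3xFLAG together with unc-119(+), in an unc-119 (tm4063) background, and they were synchronised as L1 larvae by starvation after bleaching and collected at 64 hours. The description names an anti-GFP antibody, whereas the antibody label reads sea-2. The strain therefore carries added copies of sea-2 beside the genomic gene, and of unc-119, and at sea-2 reads of the transgene and of the genomic gene cannot be told apart in these lists. How far the added DNA extends beyond sea-2 was not analysed here. Strong binding in few cells and weak binding in many cannot be told apart in whole animals.

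SEA-2 is a zinc finger protein. It is counted among the autosomal signal elements, which report the autosome number to the sex decision, acting against the X signal elements at the switch gene xol-1. It is also known to bear on the timing of larval development through lin-28. DOS-2 belongs to the family of DOS proteins, named after Delta and OSM-11, whose members act as co-ligands of Notch receptors in the worm. For cank-26 RefSeq gives only the product name of a cilia- and flagella-associated protein.

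The sequences around 6 summits are shown because they carry the strongest selected peaks of sea-2, the summit shared by cank-26 and dos-2, the selected peak in a dos-2 exon, and a pair of sites that only the replicates' own lists hold. All are from the plus strand of WBcel235, the ce11 assembly, read 5′ to 3′ from the RefSeq genome, each 151 bp long and centred on its summit. Capitals mark TTAGGC, the repeat unit of C. elegans telomeres, and GAGAGA and CGCGCA, each on either strand. Runs of GAGAGA overlap themselves.
sea-2 intron 2, chrII:3957974-3958124: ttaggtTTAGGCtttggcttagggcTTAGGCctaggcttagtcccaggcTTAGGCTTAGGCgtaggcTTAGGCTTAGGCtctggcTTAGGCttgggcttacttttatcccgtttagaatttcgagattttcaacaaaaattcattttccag
sea-2 intron 2, chrII:3958770-3958920: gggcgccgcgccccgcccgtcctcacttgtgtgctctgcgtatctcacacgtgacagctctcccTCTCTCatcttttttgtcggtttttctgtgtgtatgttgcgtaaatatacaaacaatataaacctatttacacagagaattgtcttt
upstream of cank-26 and dos-2, chrII:3975345-3975495: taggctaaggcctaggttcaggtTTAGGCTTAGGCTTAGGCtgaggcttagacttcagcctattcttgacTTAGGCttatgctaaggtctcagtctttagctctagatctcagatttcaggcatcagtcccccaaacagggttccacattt
dos-2 exon 5, chrII:3977353-3977503: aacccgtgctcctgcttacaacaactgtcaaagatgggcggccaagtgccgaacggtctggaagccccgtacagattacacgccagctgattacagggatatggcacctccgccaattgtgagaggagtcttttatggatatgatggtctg
sea-2 intron 2, summit of replicate 2's own list, chrII:3952635-3952785: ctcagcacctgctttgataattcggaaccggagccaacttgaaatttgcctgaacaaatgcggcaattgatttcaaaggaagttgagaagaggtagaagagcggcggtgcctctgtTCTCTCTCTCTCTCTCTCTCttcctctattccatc
sea-2 intron 2, summit of replicate 1's own list, chrII:3953497-3953647: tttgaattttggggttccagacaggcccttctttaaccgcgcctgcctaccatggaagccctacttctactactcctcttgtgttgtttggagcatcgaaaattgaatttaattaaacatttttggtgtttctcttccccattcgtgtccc

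The strongest peak of sea-2 and the peak between cank-26 and dos-2 both lay on sequence that holds several copies of the telomeric repeat unit. Within 100 bp of the summit, TTAGGC occurred 9 times at the former and 7 times at the latter, of which 7 and 4 copies fall in the bases shown. A further candidate of cank-26, in its intron 6 and in neither selected list, had 4 copies. At least 3 copies were held by 3 of the 34 candidates (8.82%), by 0.832% of all candidates and by 4 of the 453 optimal peaks, of which the peaks at sea-2 and between cank-26 and dos-2 are 2. At least 1 copy was held by 4 of the 34 (11.8%), against 5.67% of all candidates and 6.18% of optimal peaks. TTAGGC was searched for after these sequences had been seen, and a match is a description of the letters, not of a binding site.

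The other motifs were spread differently. GAGAGA was present within 100 bp of 9 of the 34 summits (26.5%), against 11.7% of all candidates and 27.4% of optimal peaks, but only 1 of the 9 optimal peaks at these genes held it. It forms the run in the replicate 2 site shown above. CGCGCA was present at 1 of the 34 (2.94%), at 3.996% of all candidates and at 18.1% of optimal peaks, and at 0 of the 9 optimal peaks of these genes. The GC content of the 34 windows was 47.3% ± 7.41 (SD, n = 34), that of the 9 optimal peaks 51.1% ± 5.81 (SD, n = 9), that of all 453 optimal peaks 49.1% ± 7.22 (SD, n = 453) and that of all candidates 40.1% ± 7.11 (SD, n = 82563). Only 1 of the 34 windows had more than 50% of its 31-mers repeated elsewhere in the nuclear genome, a candidate in intron 2 of sea-2 at 55.0%. For the telomere-like peaks the repeated share was 8.19% at sea-2 and 1.75% upstream of cank-26 and dos-2, so most 31-mers of both windows occurred at 1 place in the nuclear genome.

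The authors selected peaks of the pooled replicates in 2 lists. These optimal and conservative lists hold peaks at an irreproducible discovery rate (IDR) of 0.01 or less, a measure of how poorly the rank of a peak repeats between compared lists. Signal is the authors' score of a peak, on a scale that the sources used here do not define. All 3 genes had at least 1 optimal peak, as did 374 of the 19985 protein-coding genes (1.87%). The optimal list held 9 of the 34 candidates, where it held 0.549% of all candidates. The conservative list held 7 of them, against 0.522% of all. By gene, the optimal list had 7 peaks at sea-2, 2 at dos-2 and 1 at cank-26, and the conservative list 5, 2 and 1. At sea-2 4 peaks were in both lists, 3 in the optimal list only and 1 in the conservative list only. These counts follow from how the genes were chosen, so nothing is read from them against the background. The share of sea-2 candidates in the optimal list was 25.9%.

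The plot of pooled signal along the locus shows the selected peaks in 4 places: intron 2 of sea-2, its middle exons, the space between cank-26 and dos-2, and a dos-2 exon.

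**Figure D1:**
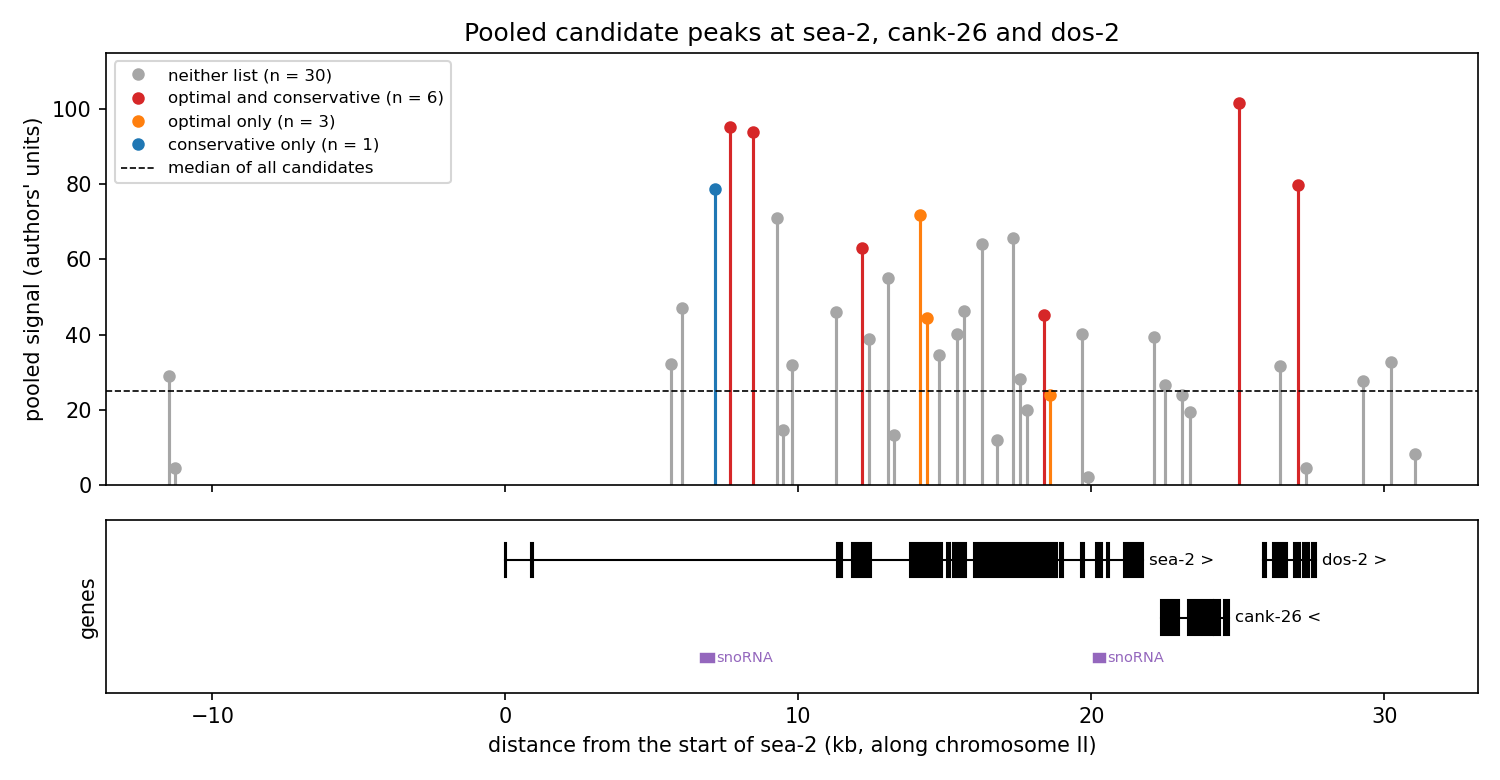
Signal of every pooled candidate against the distance of its summit from the start of sea-2 in kb, with exons of the longest transcript of each gene as boxes below; colours give the selected lists and the dashed line the median of all candidates, 24.9. The highest stem, at 101.8, stands between cank-26 and dos-2, and no stem stands over the first 5.665 kb of sea-2.

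The body of sea-2 spans 3950377 to 3972140 on the plus strand, 21764 bp, and its longest transcript has 14 exons. Intron 2 is 10355 bp long, and it held 9 of the 27 candidates, 2 of the 7 optimal peaks and 3 of the 5 conservative peaks. The snoRNA gene K10G6.10 lies in this intron at 3957203 to 3957372; snoRNAs guide the modification of other RNAs. Exons held 15 of the 27 candidates, 5 of the 7 optimal peaks and 2 of the 5 conservative peaks, while exons make up 29.7% of the body. Exon 9, the longest with 2832 bp, held 7 candidates and 2 optimal peaks, and exon 6 held 3 candidates and 2 optimal peaks. In both exons the 2 optimal peaks overlapped each other. The share of exons among the candidates and optimal peaks of the genome was not analysed here.

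In intron 2 a cluster of 3 strong peaks ran from 3957527 to 3958845. The first, 155 bp from K10G6.10, had a pooled signal of 78.8 and was selected in the conservative list only. In the longer ranked list it was paired with a signal of 45.2 in replicate 1 and 46.0 in replicate 2, a ratio of 0.984. The signals were thus nearly level there, while the site ranked 687 in replicate 1's own list and 295 in replicate 2's. The next summit, at 3958049 on the telomeric repeats, had a pooled signal of 95.2, the highest of sea-2, and ranked 271. Its paired signals were 63.3 and 35.9. The third, at 3958845, had a pooled signal of 93.9, with paired signals of 67.8 and 33.2. At these last summits replicate 1 was the higher, by 1.76-fold and 2.04-fold.

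The selected peaks in exons fell beside internal starts of sea-2 transcripts in part. The annotation gives 19 transcripts from 6 starts. The optimal peak at 3962553 in exon 5 lay 31 bp after the start at 3962522. Its pooled signal was 62.9, with 39.9 in replicate 1 and 48.0 in replicate 2. The replicates' own summits lay on either side of that start, at 3962558 in replicate 1 and 3962408 in replicate 2, 150 bp apart. The optimal peak at 3964536 in exon 6 lay 196 bp after the start at 3964340, with a pooled signal of 71.7 and paired signals of 42.5 and 25.7. An unselected candidate at 3966649 in exon 9 lay 154 bp after the start at 3966495, with a pooled signal of 64.2 and paired signals of 40.1 and 21.8. The annotated start of the gene itself had no pooled candidate within 5665 bp downstream.

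Of the 7 optimal peaks at sea-2, 2 pairs overlapped. Both peaks of the exon 6 pair and the weaker of the exon 9 pair were in the optimal list only. In exon 6 the peak at 3964768 had a pooled signal of 44.5, against 71.7 for its neighbour at 3964536. In the ranked list from which the optimal list was taken, both carried the same compared signals, 39.9 and 49.1, and had IDR values of 0.00379 and 0.00374. In exon 9 the peak at 3968980 had a pooled signal of 23.8, below the median of all candidates, and its neighbour at 3968760 had 45.2. This pair also carried the same compared signals in that list, 38.6 and 39.2. In the longer ranked list the pairs parted. Its IDR was 0.0456 at 3964536 and 0.43 at 3964768, and it was 0.00195 at 3968760 and 0.669 at 3968980. At 3968760 the first compared signal, 49.9, matched no peak of replicate 1's own list. Whether the IDR there compares the replicates' own peaks is thus not known here. At 3968980 the paired signals were 9.03 in replicate 1 and 45.5 in replicate 2, which belong to separate summits at 3969214 and 3968945.

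Most selected peaks at the locus had a q value above 0.05 in the authors' lists. The q value was at or below 0.05 for 3 of the 10 peaks in either selected list, namely those at 3958049, 3958845 and 3975420, and for 0 of the 24 candidates in neither list. In the whole optimal list it was at or below 0.05 for 225 of 453 peaks.

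The peak between cank-26 and dos-2 was the strongest of the locus. Its summit at 3975420 lies 355 bp upstream of cank-26, which runs on the minus strand from 3972742 to 3975065, and 822 bp upstream of dos-2, which runs on the plus strand from 3976242 to 3978043. It also lies 21 bp from K10G6.7, a gene of a non-coding RNA at 3975329 to 3975399. The pooled signal was 101.8, at rank 221, with 49.2 in replicate 1 and 56.1 in replicate 2. The signals differed little there, with a ratio of 0.877, while the site ranked 434 in replicate 1's own list and 146 in replicate 2's. The peak was in both selected lists but in neither replicate's own thresholded list.

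At dos-2 the other selected peak, at 3977428 in exon 5, had a pooled signal of 79.7, at rank 486, with 43.1 in replicate 1 and 47.3 in replicate 2. The remaining dos-2 candidates were weaker, at 31.6 in exon 3 and 4.47 in exon 6. In the body of cank-26 all 3 candidates were unselected, with pooled signals between 19.3 and 26.5, near the median of all candidates. The body of cank-26 thus had no selected peak, and its only one was the summit shared with dos-2.

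The candidates of sea-2 that neither list selected were also high. Over all 27 candidates the pooled signal ranged from 2.01 to 95.2 with a median of 44.5, which is 1.79 times the median of 24.9 over all candidates, and 21 of the 27 were above that median. The 19 in neither list had a median of 38.8 and a range from 2.01 to 71.0. For dos-2 the median over its 4 candidates was 2.23 times the genome median, and for cank-26 it was 1.01 times. The replicates' own lists gave the same order between sea-2 and the genome: the ratio at sea-2 was 1.51 in replicate 1 and 1.45 in replicate 2. At cank-26 it was 0.88 in replicate 1 from 3 candidates and 2.02 in replicate 2 from 2, too few for a direction to be read. In both replicates the body candidates lay below the replicate's own median, 18.97 and 16.3, and the summit shared with dos-2 above it. The body signals were 14.8 and 16.7 in replicate 1 and 9.74 in replicate 2, and the shared summit had 49.2 and 56.1.

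Beyond the 3 genes the median signals were near that of the genome. In the 50 kb before sea-2 there were 41 pooled candidates with a median signal of 25.97 and 0 optimal peaks. The sea-2 body had 1.24 candidates per kb, the stretch from its end to the end of dos-2 had 1.36, and the genome had 0.823. From the end of dos-2 to 50 kb beyond sea-2 there were 29 candidates, 0.658 per kb, with a median of 27.7 and 1 optimal peak, at 4008148 with a signal of 89.4. The nearest candidates outside the windows were at 3939086, 11291 bp before sea-2, with a signal of 4.49, and at 3979656, 1613 bp after dos-2, with 27.7. Between sea-2 and cank-26 a further candidate at 3972526, in K10G6.9, fell outside the windows with a signal of 39.4.

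In replicate 1 the median signal was 17.4 over the 50 kb before sea-2, 28.7 over its body and 19.6 from the end of dos-2 onward, and in replicate 2 it was 18.5, 23.5 and 16.6. The plot of the locus in 5 kb steps shows these levels.

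**Figure D2:**
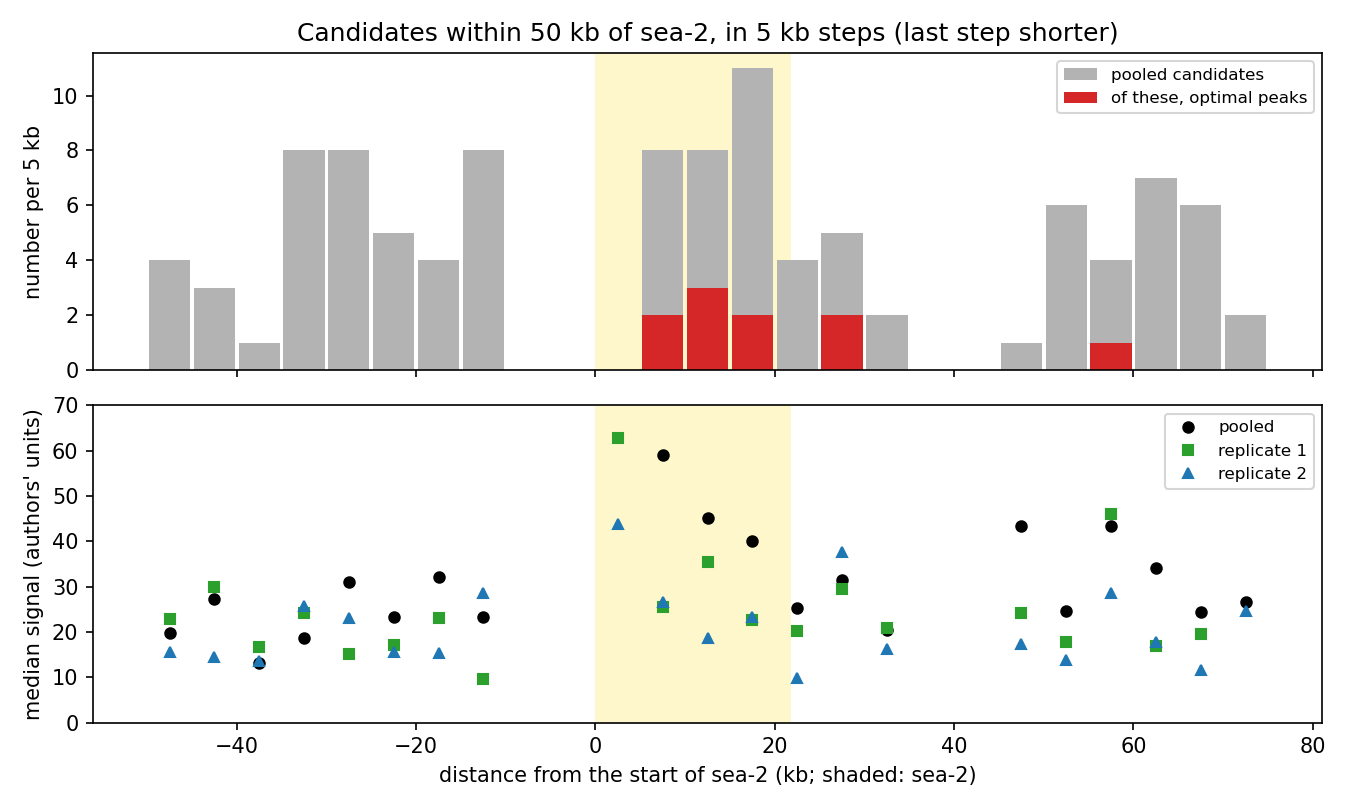
Top, number of pooled candidates and of optimal peaks per 5 kb from 50 kb before to 50 kb after sea-2; bottom, median signal of the candidates in each step for the pooled list and each replicate's own list, against the distance from the start of sea-2 in kb, with sea-2 shaded. The pooled median is highest in the step from 5 to 10 kb, at 59.1, and in the first step of the gene only the replicates have candidates.

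The first part of sea-2 held strong peaks in both replicates that were in neither pooled list. Pooled summits were absent from 3939086 to 3956042, a gap of 16956 bp, of which 11291 bp lay before sea-2 and 5665 bp in it. Gaps at least as long made up 0.475% of all gaps between neighbouring pooled summits, whose median was 723 bp. The replicates' own lists also had long gaps there, 13572 bp in replicate 1 and 13834 bp in replicate 2. Gaps at least as long made up 1.13% and 1.0% of theirs. Within the pooled gap, in intron 2, replicate 1 had a summit at 3952671 with a signal of 60.1 and replicate 2 had one at 3952710, 39 bp away, with 76.0. They ranked 208 of 51269 in replicate 1 and 71 of 50405 in replicate 2, where the site was the highest of sea-2. A further site lay at 3953572 in replicate 1, with a signal of 65.7 and rank 161, and at 3953569 in replicate 2, with 43.8 and rank 362. These summits were 3371 and 2470 bp from the nearest pooled summit. By signal both sites were thus near the top of both replicates' lists, but each was thresholded in only 1 replicate, the former in replicate 2 and the latter in replicate 1. The IDR of the former was 0.773 in replicate 1's list and 0.0024 in replicate 2's. For the latter it was 0.00588 and 0.0212. Why the pooled lists lack them was not tested.

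In replicate 1 the thresholded list held 0.326% of candidates, and 3 of the 28 at sea-2; in replicate 2 it held 0.236%, and 4 of the 32 at sea-2. At dos-2 and cank-26 the thresholded lists held 0 of 4 and 0 of 3 candidates in replicate 1, and 0 of 4 and 0 of 2 in replicate 2. Few thresholded peaks of the genome were absent from the longer pooled list. Of all 167 of replicate 1, 1 overlapped no candidate of the longer pooled list, and it was in sea-2. In replicate 2, 3 thresholded peaks overlapped none, and 2 of these were in sea-2. They were the site at 3952710 and a peak at 3969738 in intron 10, with a signal of 26.2.

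**Figure D3:**
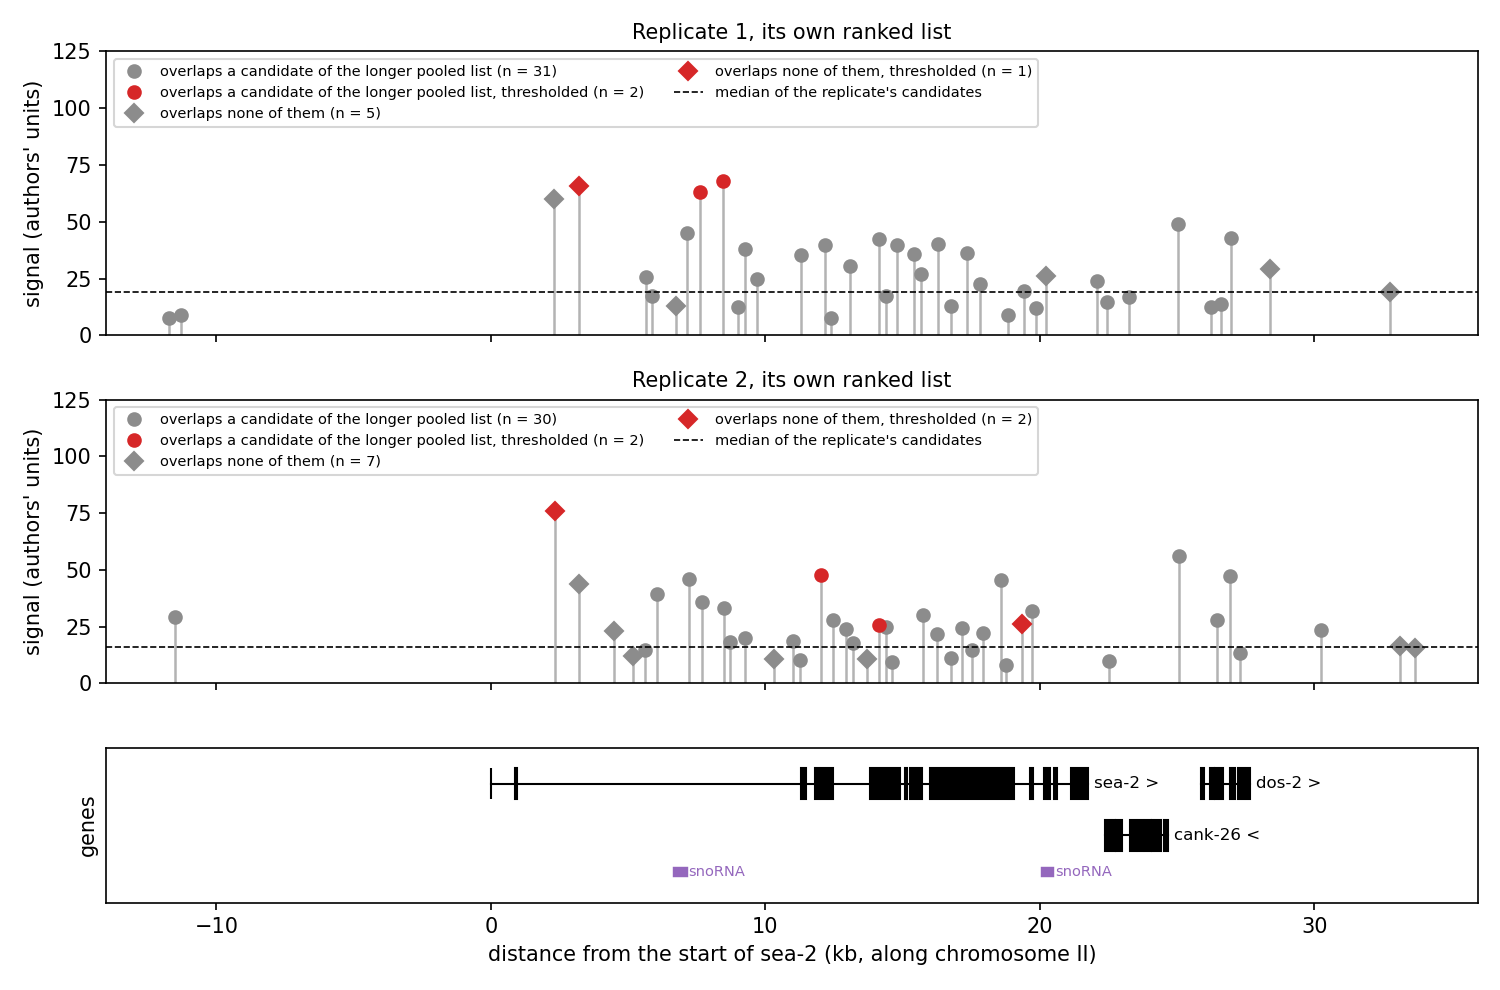
Signal of each candidate in the own ranked list of replicate 1 (top) and replicate 2 (middle) against the distance of its summit from the start of sea-2 in kb, with gene models below; diamonds overlap no candidate of the longer pooled list, red marks thresholded peaks and the dashed line is the replicate's own median, 18.97 and 16.3. The diamonds at 2.294 kb (replicate 1) and 2.333 kb (replicate 2), and at 3.195 and 3.192 kb, stand among the highest stems in both replicates.

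The replicates did not share their thresholded peaks at the locus. Among the 9 optimal peaks, those at 3958049 and 3958845 overlapped thresholded peaks of replicate 1 only, those at 3962553, 3964536 and 3964768 of replicate 2 only, and the other 4 of neither. As candidates, 24 of the 28 of replicate 1 at sea-2 (85.7%) overlapped a candidate of replicate 2, against 49.2% of all its candidates. Of the 32 of replicate 2, 28 (87.5%) overlapped one of replicate 1, against 48.5%. Candidates were denser in the sea-2 body, at 1.29 per kb in replicate 1 and 1.47 in replicate 2, than in the genome, at 0.511 and 0.503. Denser candidates overlap more often, so the genome's shares are not a like comparison and nothing is read from the difference.

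The signals compared in the longer ranked list differed at many of these candidates. Of the 34 first signals 33 were identical, by interval and value, to a peak of replicate 1's own ranked list, and of the second signals 30 to a peak of replicate 2's; both were for 29 candidates. The exceptions were the first signal at 3968760 and the second at 3960157, 3965776, 3973484 and 3973742, whose source list was not analysed here. Over the 29 the compared signals differed by more than 2-fold in 11 (37.9%), against 5868 of the 29279 candidates of the genome with both signals matched. Over all 34 it was 15 (44.1%), against 22.8% of all candidates, 12.8% of optimal peaks and 3.48% of conservative peaks. Replicate 1 was the higher in 17 of the 29, and the median ratio of replicate 1 to replicate 2 was 1.29 over the 29 and 1.16 over the matched candidates of the genome. Over all 34 the first signal was the higher in 22, with a median ratio of 1.51. Some neighbouring candidates carried the same compared signal, so that the 34 rest on 28 distinct first and 30 distinct second peaks.

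**Figure D4:**
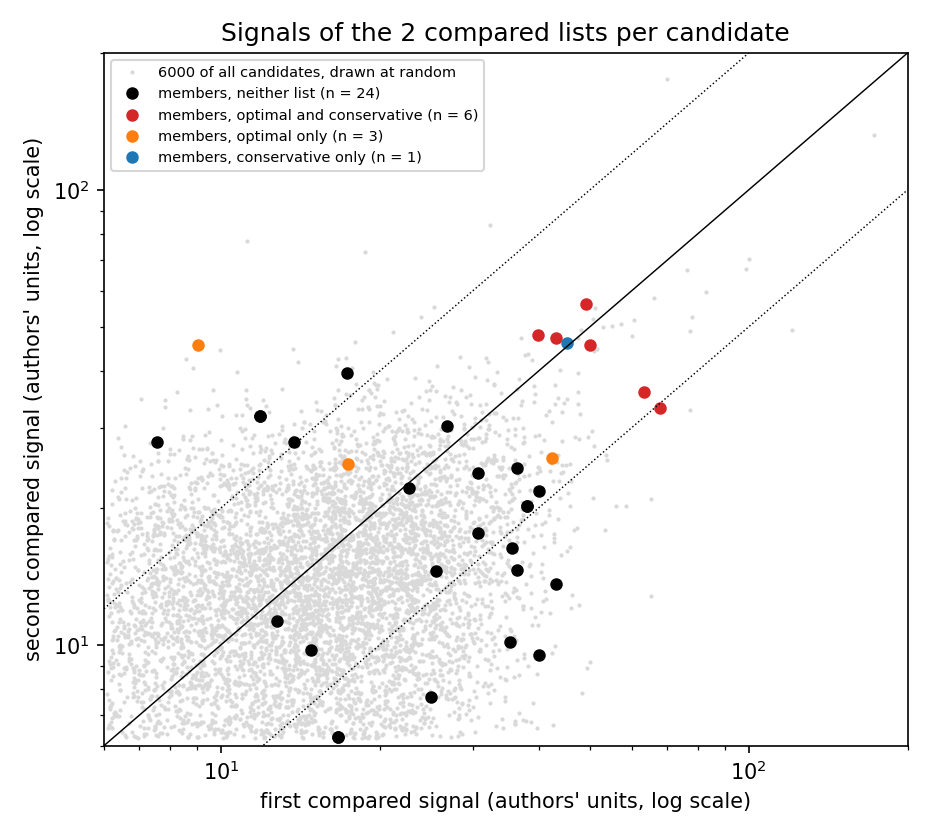
Second compared signal against the first for the 34 candidates, in 29 of which these match the own lists of replicates 2 and 1,, coloured by selected list, over a random draw from all candidates (grey), on log axes cut at 6 and 200; the solid line marks equal signals and the dotted lines a 2-fold difference. The peaks in both lists sit at the upper right, and the candidate selected in the optimal list only at the upper left has 9.03 in replicate 1 and 45.5 in replicate 2.

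By number of optimal peaks sea-2 stood first among all protein-coding genes, as its choice implies. Its 7 were followed by 4 at tos-1, and by 3 each at lin-42, at ppfr-1, named as a regulatory subunit of a protein phosphatase, at F26F12.3 and at Y43F8B.2. A window at least as long as that of sea-2 was found for 162 genes, itself included; their median number of candidates was 27, equal to its own, and 12 of them had an optimal peak. By the conservative list sea-2 and tos-1 were level with 5 each, and per kb of window sea-2, at 0.308 optimal peaks, was below dos-2, at 0.714, tos-1, at 0.63, and F26F12.3, at 0.386.

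The pathways of sea-2 and dos-2 were counted in the same windows. Over all protein-coding genes 1.87% had an optimal peak, and 361 of the 19985 had a conservative peak. A count of 0 in a short list is thus near the background. Of 15 other sex determination genes found in the annotation, 0 had an optimal peak; 13 had a candidate, and the strongest of each ranged from 19.03 to 75.04, the highest at fox-1, an X signal element that encodes an RNA-binding protein. At sea-1, the other autosomal signal element, the strongest candidate was 24.8, and at xol-1 it was 34.6. Of 17 other Notch pathway genes 0 had an optimal peak and 16 had a candidate. The strongest candidate among them was 78.4, at dos-1, and dos-3 had 70.8. The relatives osm-11 and osm-7 had 42.3 and 35.9, below the median of 44.7 over the genes of that list with a candidate. Of 11 heterochronic genes, which time larval stages, 3 had a conservative peak and 5 had an optimal peak: lin-42, the worm relative of period, with a highest signal of 111, the Trim-NHL gene nhl-2 with 215, the nuclear receptor gene daf-12 with 86.0, and lin-66 and the Pumilio family gene puf-9, each with 79.0. Nothing is read from the heterochronic counts, since the gene lists were chosen with earlier results of these data known. Windows also differed in length, with 20124 bp at lin-42 against a median of 3026 bp over all genes. The rescue marker unc-119, which the transgene also adds, had 4 candidates, 0 optimal peaks and a highest signal of 53.4.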

How the data were processed

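The data were ChIP-seq peak lists of 2 biological replicates of 1 group. The authors deposited 8 lists on ce11, per the names of the lists: a ranked and a thresholded list for each replicate, and for the pooled replicates 2 ranked lists, an optimal and a conservative list. The authors' deposited signal per peak is a score of unstated scale. Beside it the deposited lists give −log10 q and −log10 IDR. The aligner, the peak caller and their settings were not given in the sources used here; read depth is unknown for both replicates. In the longer pooled ranked list the compared signals matched peaks of the own lists of replicates 1 and 2, by interval and value, for 56.9% and 57.6% of candidates, and for 0% in the other pooled list. They are given as a replicate's signal where they match; at these genes both match for 29 of 34 candidates.

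Summits were placed in the Ensembl release 115 annotation of WBcel235, using the longest transcript of each gene. Motifs and 31-mers were counted within 100 bp of summits. The scripts were tested on simulated peaks. Python 3.11.15, numpy 2.4.6, pandas 2.3.3, scipy 1.17.1 and matplotlib 3.10.9 were used. No test across groups was made, since the design has 1 group. The genes, the gene lists and the windows were chosen with earlier results of these data known. Named are the 3 genes, genes within 20 kb with an optimal peak, listed pathway genes with an optimal peak, unc-119 and the 5 genes with the most optimal peaks, to which Y43F8B.2 was added because the rule fell within a tie; fox-1, sea-1, xol-1, dos-1, dos-3, osm-7 and osm-11 and the genes K10G6.7, K10G6.9 and K10G6.10 were named after their values were seen. Of the listed names sex-2, lin-4, let-7 and lag-3 were not matched in the protein-coding annotation. Alternatives were other windows, distinct summits, other lists, stricter thresholds and each replicate alone.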

Additional observations from a re-analysis of the deposited data

How the results depend on the processing

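Of 54 alternatives over 5 results (the optimal peaks at each gene, the share of sea-2 candidates in the optimal list and the ratio of the median sea-2 signal to the genome's), 32 stayed within 1.5-fold for counts or within 1 SD of the replicates' own values for the share (1.26 points) and the ratio (0.0476), and 22 moved; the causes were not tested. With 1 replicate's own lists the peaks numbered 3 to 4 at sea-2, 0 to 0 at dos-2 and 0 to 0 at cank-26, the share was 10.7 to 12.5% and the ratio 1.45 to 1.51. With peaks at or above the optimal median signal there were 2 at sea-2 and 1 at dos-2, a share of 7.41%. At an IDR of 0.001 or less all 3 counts and the share (0%) were 0. Some of the 32 could not move. All 453 optimal peaks are in both ranked lists, so a change of ranked list could not change their counts. The nearest pooled summit before sea-2 was 11291 bp away, so the upstream settings could not change its values. The distinct-summit setting dropped summits within 200 bp of a stronger one. The summits of both overlapping pairs of optimal peaks at sea-2 lie farther apart than that, so it could not merge them. The SD limits rest on only 2 replicates. Without upstream sequence dos-2 had 1 and cank-26 had 0. Outside the optimal list the ratio was 1.58. The optimal list with the other pooled ranked list, and the conservative list with the longer one, were alternatives added after seeing the data; their values stayed, except that with the conservative list the share was 18.5%, under either ranked list. No paired analysis was possible because the design has 1 group. Read depth, which limits how weak a peak can be called, is unknown.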

Other observations

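In the own lists of the replicates, 5 of the 34 candidates of replicate 1 at the 3 genes and 7 of the 37 of replicate 2 ranked in the upper 1% of that replicate's candidates. At sea-2, 3 of the 28 candidates of replicate 1 (10.7%) overlapped no candidate of either pooled ranked list, near the 9.5% of all its candidates. In replicate 2 it was 7 of the 32 (21.9%), against 12.9% of all.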
